A study of Brassica rapa subsp. chinensis with 24 samples.

Results

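The bacterial seed treatment called SAB was examined here in the leaves of day 18 plants of Choy-sum, a leafy vegetable of the species Brassica rapa (subsp. chinensis), by setting 3 libraries of SAB leaves beside 3 libraries of untreated leaves, 6 of the 24 libraries of the study. SAB is a mixture of Streptomyces, Agromyces and Bacillus applied to the seeds, and the untreated seeds were soaked in magnesium sulfate solution instead. All plants were wild type and grew in pots of peat-moss soil. Whole leaves were taken from mature plants that had not flowered, each library from an independent biological replicate. Leaves of day 8 seedlings and roots of day 18 plants, each with 3 SAB and 3 untreated libraries, serve below as points of comparison. The study describes SAB as promoting growth of leafy vegetables, and the comparison asks which leaf transcripts differed at the older stage.

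The table behind the values holds estimated counts per row, and the row identifiers are written as Arabidopsis thaliana locus names. Rows of 1 identifier were summed, because Brassica rapa often carries several copies of a gene that Arabidopsis has once. The 66566 rows gave 20564 loci, of which 14451 combine 2 or more rows, so a value below is the sum over copies or transcript forms and does not say which of them moved. Gene symbols and roles are those known for the named locus in Arabidopsis thaliana. The SAB leaves of day 18 held 28747633 to 31314328 estimated counts per library and the untreated leaves 30807937 to 32915673. Levels are CPM, that is estimated counts after edgeR's TMM scaling of library sizes, given for replicates 1, 2 and 3 in that order. Every adjusted p comes from edgeR's quasi-likelihood test with Benjamini-Hochberg adjustment over all loci, and a locus is called where it is below 0.05. No leaf library of day 18 stood apart. Each correlated more closely with its own group (mean Spearman coefficients of 0.967 to 0.973) than with the other group (0.944 to 0.953).

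As background, a leaf divides its resources between growth and defence. Photosynthesis genes of the nucleus, nitrate and sulfate assimilation and the gibberellin and brassinosteroid pathways serve growth, and they are commonly active together in expanding, well-lit leaves. Cell-surface immune receptors detect microbial patterns or the plant's own danger peptides and act through calcium signals, NADPH oxidases, MAP kinases and WRKY transcription factors. Jasmonate, abscisic acid, ethylene and salicylic acid then carry different parts of the response to wounding, drought and infection, and bacteria at the root can change how readily leaves make these responses.

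Of 17706 loci tested, 1401 had a higher level in SAB leaves and 1154 a lower level, together 14.4% of the loci tested (7.91% higher and 6.52% lower). An unadjusted p below 0.05 was found at 5065 loci. The rises were larger than the falls: the median log2 fold was 0.98 over the called rises and -0.66 over the called falls, and 680 rises but 249 falls reached 2-fold. The groups did not overlap for 1356 of the called rises and 1140 of the called falls. Over all loci tested, SAB lay above untreated in every library pair for 14.6% and below it for 14.1%. Separate groups were also a condition for naming the largest rises and falls of each list below. For those genes the separation is therefore no further evidence. The balance of directions depends on the scaling. With library totals in place of TMM factors the median of all loci moved by 0.17 to the SAB side, and 2273 loci were higher and 611 lower, a share of 78.8% higher in place of 54.8%. The fit drew its estimate of spread from the 12 leaf libraries of both ages, and with the 6 libraries of day 18 alone 504 loci were higher and 231 lower.

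**Figure D1:**
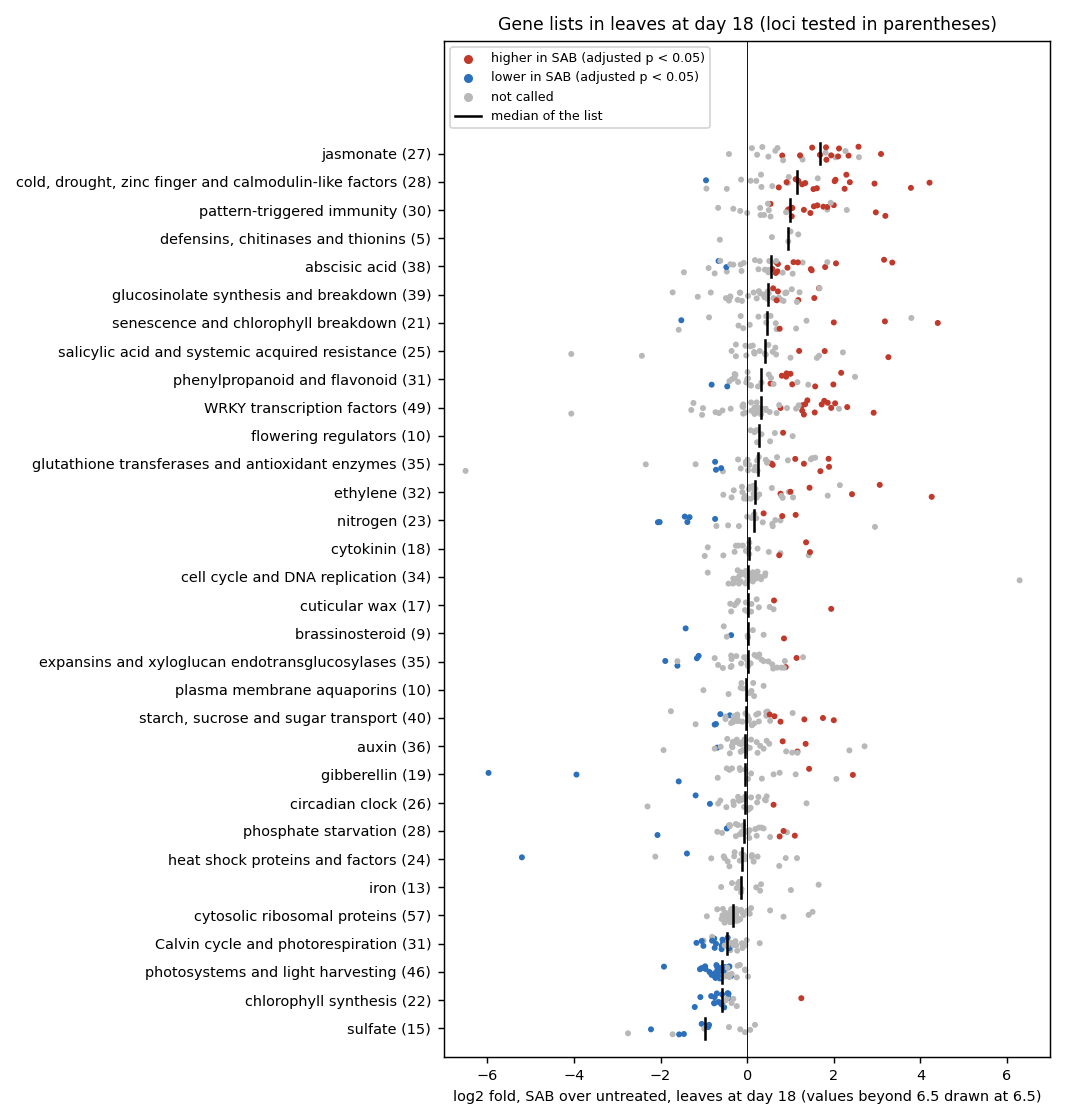
Log2 fold of SAB over untreated leaves at day 18 (horizontal axis) for the tested loci of 32 gene lists (vertical axis, number tested in parentheses), each point being 1 locus and the black bar the median of its list. Red points were called higher, blue points lower and grey points neither; jasmonate genes have the highest median, 1.68, and sulfate genes the lowest, -0.97.

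Nuclear genes of photosynthesis were lower in SAB leaves in all 3 of their lists. Of 46 tested genes of the photosystems, antenna, electron transport and chloroplast ATP synthase, 31 fell and 0 rose, with a median log2 fold of -0.57, against 6.52% of all loci falling and an all-locus median of 0.00. LHCB1.3, a chlorophyll-binding antenna protein of photosystem II, stood at 10726, 11260.4 and 13684 CPM in SAB leaves, against 22425, 20364 and 27381 CPM in untreated leaves, with a log2 difference of -0.98 (edgeR adjusted p = 0.00236, SE 0.15). PSBO1, the manganese-stabilising subunit of the oxygen-evolving complex, stood at 3932, 4828 and 4695 CPM in SAB leaves, against 7408, 6522 and 8661 CPM in untreated leaves, with a log2 difference of -0.75 (edgeR adjusted p = 0.0115, SE 0.16). In both genes every SAB library lay below every untreated library. The antenna protein LHCB3 stood at 3469, 3721 and 3307 CPM in SAB leaves, against 4785, 4263 and 5043 CPM in untreated leaves, a smaller fall of -0.42 (edgeR adjusted p = 0.0191, SE 0.10); its adjusted p reached 0.0534 when untreated replicate 1 or 3 was left out. The 2 largest falls of the list were in FNR1, the leaf ferredoxin-NADP oxidoreductase that passes electrons to NADP, with a log2 fold of -1.92 (edgeR adjusted p = 0.00587, SE 0.35), and in LHCB1.1, with -1.09 (edgeR adjusted p = 0.00526, SE 0.20). Subunits gamma and delta of the chloroplast ATP synthase, ATPC1 and ATPD, fell by 0.82 and 0.87 on the log2 scale. The number of falls was 18 without untreated replicate 3, 20 without SAB replicate 1 and 22 to 31 without each of the other 4 libraries. It was 26 with library totals, where the median was -0.40.

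The photosystem list as a whole took 12.7%, 13.9% and 14% of all estimated counts in SAB leaves, against 18.3%, 17.4% and 19.9% in untreated leaves. The means were 13.5% ± 0.748 in SAB leaves and 18.5% ± 1.27 in untreated leaves (SD, n = 3 each), and the groups did not overlap. The two-sided exact permutation test over libraries gave p = 0.1, the smallest value that 3 against 3 libraries can give. In whole leaves, a smaller share of photosynthetic cells and less of this RNA per cell cannot be told apart. Markers of guard cells summed to 48.2 to 53.2 CPM in SAB leaves and 46.1 to 62.7 CPM in untreated leaves, with 0 of 5 called, and markers of phloem and xylem to 495 to 546 CPM in SAB leaves and 472 to 566 CPM in untreated leaves, with 0 of 6 called. Mesophyll markers, all of them photosynthesis genes themselves, summed to 34412 to 39392 CPM in SAB leaves and 50775 to 63939 CPM in untreated leaves. Of 11 root markers, 3 were abundant enough to test and 0 were called; they summed to 3.14 to 7.21 CPM in SAB leaves and 3.64 to 10.3 CPM in untreated leaves, and MYB36 and COBL9, which mark root endodermis and root hairs, were at 0 in all 6 libraries. Markers of floral organs were low in both groups, at 6.23 to 11.3 CPM in SAB leaves and 3.39 to 4.74 CPM in untreated leaves, with 0 of 5 called. Their sum was still higher in every SAB library than in any untreated one. SEP3 had the largest log2 fold of them, 2.16 (edgeR adjusted p = 0.0663), and 1 of the 5, AP3, lay below 0 at -0.34. The part of cell composition in the results was not tested.

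**Figure D2:**
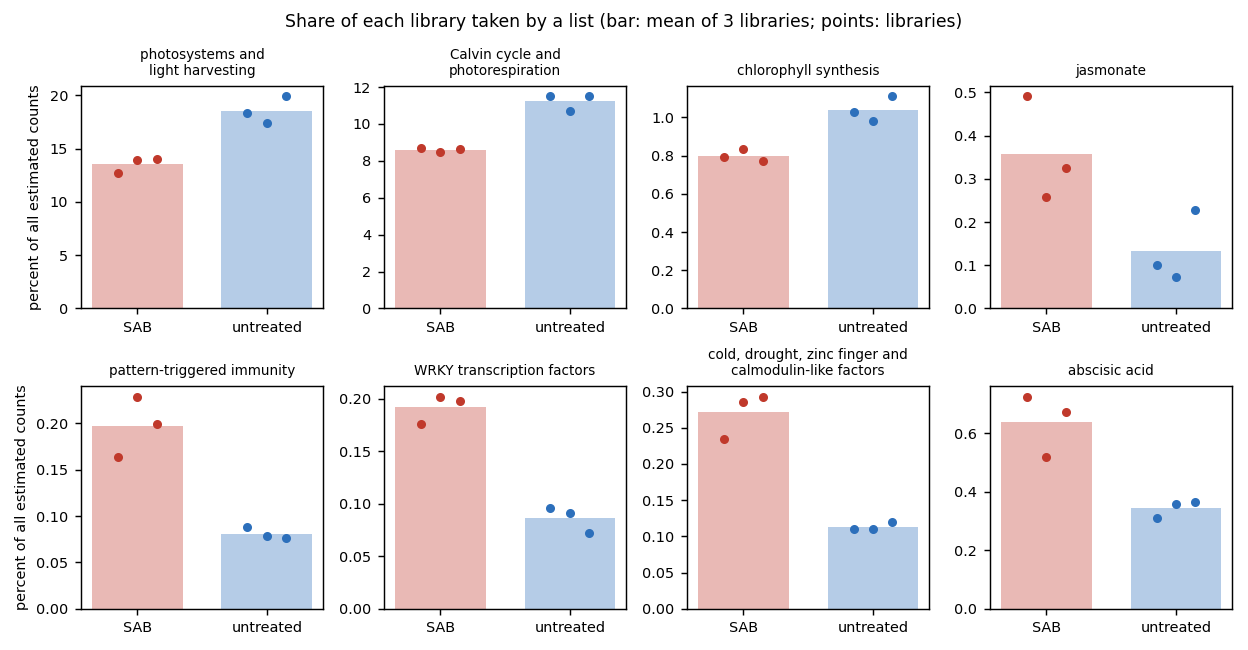
Percent of all estimated counts of a library (vertical axes, each starting at 0) taken by 8 gene lists, with SAB left and untreated right in each panel; points are single libraries and bars their mean (n = 3). The photosystem list averages 13.5% in SAB and 18.5% in untreated leaves, while the pattern-triggered immunity list averages 0.197% in SAB and 0.0812% in untreated leaves.

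Carbon fixation followed the same direction. Of 31 tested genes of the Calvin cycle and photorespiration, 13 fell and 0 rose, with a median log2 fold of -0.46, or -0.28 and 11 falls with library totals. RBCS1A, a small subunit of Rubisco, stood at 20741, 22759.7 and 25637 CPM in SAB leaves, against 38569, 34983 and 43616 CPM in untreated leaves, with a log2 difference of -0.76 (edgeR adjusted p = 0.00758, SE 0.15). GAPA2, a subunit of the chloroplast glyceraldehyde-3-phosphate dehydrogenase, stood at 2597, 3124 and 3338 CPM in SAB leaves, against 5747, 5006 and 8020.3 CPM in untreated leaves, with a log2 difference of -1.05 (edgeR adjusted p = 0.0123, SE 0.23). TKL1, a transketolase of the regeneration phase, stood at 28.4, 30.5 and 29.1 CPM in SAB leaves, against 61.9, 49.6 and 86.6 CPM in untreated leaves, the largest fall of the list at -1.17 (edgeR adjusted p = 0.00250, SE 0.18). All 3 genes were lower in every SAB library than in any untreated library. RCA, the Rubisco activase, did not pass, at 9899, 10816 and 10206 CPM in SAB leaves, against 13262, 11172 and 14805 CPM in untreated leaves (log2 fold -0.34, edgeR adjusted p = 0.120, SE 0.14).

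Chlorophyll synthesis held 15 falls and 1 rise among 22 tested genes, with a median log2 fold of -0.58 (-0.39 and 12 falls with library totals). PORA, a light-dependent protochlorophyllide oxidoreductase, stood at 150.3, 146 and 190.4 CPM in SAB leaves, against 343, 362 and 419 CPM in untreated leaves, with a log2 difference of -1.21 (edgeR adjusted p = 0.000315, SE 0.12). HEMA1, the glutamyl-tRNA reductase that opens the pathway, stood at 321, 381 and 354 CPM in SAB leaves, against 549.7, 505 and 659 CPM in untreated leaves, with a log2 difference of -0.70 (edgeR adjusted p = 0.00726, SE 0.13). CHLI1, a subunit of the magnesium chelatase, fell by 0.62, PORC by 0.66 and PORB by 1.08 on the log2 scale; PORB lost its call without SAB replicate 1 or any 1 untreated library (adjusted p up to 0.0715). The single rise was in FC1, a ferrochelatase of the haem branch, which stood at 37.8, 64.7 and 71.8 CPM in SAB leaves, against 23.0, 30.0 and 20.5 CPM in untreated leaves, with a log2 difference of 1.25 (edgeR adjusted p = 0.00669, SE 0.24). It moved against the other called genes of the list, with no overlap between the groups. Of 21 tested genes of senescence and chlorophyll breakdown 4 rose and 1 fell (19.0% and 4.76%, beside 7.91% and 6.52% of all loci), with a median log2 fold of 0.46. ATAF1, a NAC transcription factor of stress and ageing, stood at 68.1, 40.9 and 28.3 CPM in SAB leaves, against 12.6, 9.86 and 11.9 CPM in untreated leaves (log2 fold 2.00, edgeR adjusted p = 0.00119, SE 0.27). Its relative NAC019 stood at 63.5, 35.5 and 13.5 CPM in SAB leaves, against 0.499, 1.94 and 2.90 CPM in untreated leaves (log2 fold 4.40, edgeR adjusted p = 0.00543, SE 0.80). NAC055, which lost its call without SAB replicate 1 or untreated replicate 3, and PPH, the pheophytinase of chlorophyll breakdown, were the other rises, and DIN10, a raffinose synthase, was the fall. SAG12, a protease that marks advanced leaf senescence, was at 0 in all 6 libraries.

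Nitrate assimilation was lower in SAB leaves. NIA1, a nitrate reductase, stood at 284, 516 and 384 CPM in SAB leaves, against 1197, 781 and 1226 CPM in untreated leaves, with a log2 difference of -1.44 (edgeR adjusted p = 0.00220, SE 0.22). NIR1, the nitrite reductase that acts next, stood at 91.7, 272 and 291 CPM in SAB leaves, against 769.9, 948 and 1016 CPM in untreated leaves, with a log2 difference of -2.06 (edgeR adjusted p = 0.00347, SE 0.34). UPM1, which makes the sirohaem cofactor of nitrite and sulfite reductase, stood at 19.6, 28.1 and 32.0 CPM in SAB leaves, against 144, 107 and 71.6 CPM in untreated leaves, with a log2 difference of -2.02 (edgeR adjusted p = 0.00164, SE 0.29). The SAB and untreated libraries did not overlap in any of the 3, and SAB replicate 1 had the lowest level of each. NLP7, a transcription factor of the nitrate response, fell by 1.38 on the log2 scale, the glutamate synthase GLT1 by 1.33 and the asparagine synthetase ASN2 by 0.74, which completes the 6 falls among 23 tested nitrogen genes. There were 3 rises in the list, and they concern recycling and transport: the cytosolic glutamine synthetases GLN1;1 (log2 fold 0.81, edgeR adjusted p = 0.0202, SE 0.19) and GLN1;2 (log2 fold 0.38, edgeR adjusted p = 0.0403, SE 0.11) and NRT1.7 (log2 fold 1.12, edgeR adjusted p = 0.0227, SE 0.28), which loads nitrate into the phloem of older leaves. Each of these rises lost its call when some single library was left out, with adjusted p up to 0.0582 for GLN1;1, 0.107 for GLN1;2 and 0.0748 for NRT1.7, and the number of rises then lay between 0 and 2. The chloroplast glutamine synthetase GLN2 did not pass (log2 fold -0.44, edgeR adjusted p = 0.0525, SE 0.14). The rises were 13.0% and the falls 26.1% of the nitrogen list, beside 7.91% and 6.52% of all loci. The median of the list was 0.15, so the falls concern named steps and not the list as a whole.

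Sulfate uptake and reduction were lower as well, with 6 falls and 0 rises among 15 tested genes and a median log2 fold of -0.97 (-0.77 with library totals, again with 6 falls). APR3, an APS reductase of the committed step of sulfate reduction, stood at 101, 74.0 and 107 CPM in SAB leaves, against 312, 208 and 258 CPM in untreated leaves, with a log2 difference of -1.46 (edgeR adjusted p = 0.000713, SE 0.18). LSU2, a small protein named for its response to low sulfur, stood at 7.67, 16.3 and 20.8 CPM in SAB leaves, against 80.2, 67.0 and 62.2 CPM in untreated leaves, with a log2 difference of -2.22 (edgeR adjusted p = 0.00131, SE 0.30). SULTR1;2, a high-affinity sulfate transporter, stood at 1.75, 2.76 and 2.57 CPM in SAB leaves, against 8.74, 7.66 and 4.61 CPM in untreated leaves, with a log2 difference of -1.57 (edgeR adjusted p = 0.00682, SE 0.30). None of the 3 overlapped between groups. APR2, the transporter SULTR2;2 and the serine acetyltransferase SERAT2;1 fell by 0.88, 1.05 and 0.90 on the log2 scale; APR2 had an adjusted p of 0.0532 without untreated replicate 1. Phosphate and iron genes did not share this pattern. Of 28 phosphate-starvation genes 3 rose and 2 fell (10.7% and 7.14%, beside 7.91% and 6.52% of all loci). Of 13 tested iron genes edgeR called 0, with a median of -0.14 and 2 at an unadjusted p below 0.05. DESeq2 called 2 iron genes and limma-voom 0. The largest phosphate-list change was in PPCK1, a kinase of phosphoenolpyruvate carboxylase, at 5.45, 6.17 and 5.65 CPM in SAB leaves, against 28.2, 19.2 and 25.1 CPM in untreated leaves (log2 fold -2.07, edgeR adjusted p = 8.55e-05, SE 0.15). SPX1, a phosphate sensor, and the ferritin FER1 did not pass (log2 fold -0.58, edgeR adjusted p = 0.0506, SE 0.18 for SPX1 and log2 fold 1.01, edgeR adjusted p = 0.0698, SE 0.34 for FER1).

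**Figure D3:**
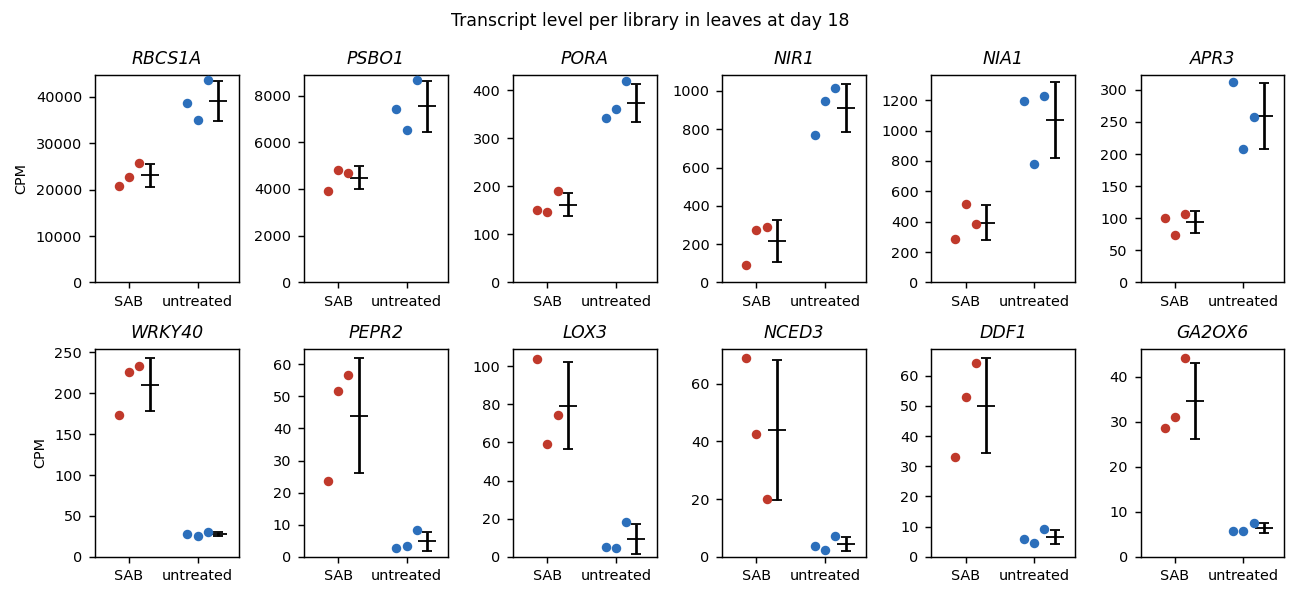
Transcript level in CPM (vertical axes, each starting at 0) in each library of day 18 leaves for 12 genes, with SAB (red) left of untreated (blue) and the mean ± SD of 3 libraries in black beside each group. The upper row shows genes that were lower in SAB leaves and the lower row genes that were higher; in all 12 panels the 2 groups are separate.

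Jasmonate genes had the highest median log2 fold of the 32 lists, 1.68, with 12 rises and 0 falls among 27 tested, against 7.91% of all loci rising. The 2 largest called rises were in enzymes that make or modify the hormone. LOX3, a lipoxygenase that starts jasmonate synthesis, stood at 104, 59.4 and 74.5 CPM in SAB leaves, against 5.18, 4.65 and 18.2 CPM in untreated leaves, with a log2 difference of 3.09 (edgeR adjusted p = 0.00512, SE 0.55). JMT, which methylates jasmonic acid, stood at 92.1, 60.1 and 43.3 CPM in SAB leaves, against 6.37, 8.24 and 18.3 CPM in untreated leaves, with a log2 difference of 2.57 (edgeR adjusted p = 0.00659, SE 0.49). Both were named on the condition that every SAB library exceeded every untreated one, and untreated replicate 3 was the highest of its group. Other synthesis genes that rose were AOC2 (log2 fold 2.1), OPCL1 (1.83) and OPR3 (1.68). Among the signalling genes, the JAZ repressors JAZ3, JAZ5, JAZ6, JAZ8 and JAZ12 rose by log2 folds of 0.81 to 2.34, and the transcription factor MYC2 stood at 273, 205 and 175 CPM in SAB leaves, against 76.0, 52.4 and 152 CPM in untreated leaves (log2 fold 1.22, edgeR adjusted p = 0.0377, SE 0.34). JAZ10 did not pass, at 10.2, 5.66 and 10.7 CPM in SAB leaves, against 1.56, 2.69 and 6.99 CPM in untreated leaves (log2 fold 1.24, edgeR adjusted p = 0.0894, SE 0.44). LOX2, an abundant leaf lipoxygenase, stood at 797, 245 and 653 CPM in SAB leaves, against 278, 94.9 and 673 CPM in untreated leaves, with overlapping groups (log2 fold 0.70, edgeR adjusted p = 0.498, SE 0.60). The count of rises depended on untreated replicate 3, whose jasmonate list took 0.229% of its counts beside 0.0995% and 0.0725% in the other untreated libraries and 0.491%, 0.258% and 0.324% in SAB leaves. It was 20 without that library, 5 without untreated replicate 1 and 8 to 12 without each of the other 4. MYC2 and OPR3 each lost the call without any of 4 libraries (adjusted p up to 0.124 and 0.144), JAZ12 without 3 (0.0816), JAZ6 without 2 (0.0688), and AOC2 and JAZ5 without untreated replicate 1 (0.0558 and 0.0519).

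Abscisic acid genes held 14 rises and 2 falls among 38 tested, with a median log2 fold of 0.55. NCED3, the dioxygenase of the rate-limiting step of abscisic acid synthesis, stood at 68.7, 42.7 and 20.1 CPM in SAB leaves, against 3.59, 2.28 and 7.10 CPM in untreated leaves, with a log2 difference of 3.35 (edgeR adjusted p = 0.00158, SE 0.48). RAB18, a dehydrin that responds to abscisic acid, stood at 51.6, 34.9 and 32.0 CPM in SAB leaves, against 13.5, 12.2 and 16.4 CPM in untreated leaves, with a log2 difference of 1.49 (edgeR adjusted p = 0.00942, SE 0.30). KIN2, a small cold- and drought-responsive protein, stood at 30.3, 12.9 and 28 CPM in SAB leaves, against 6.30, 7.86 and 3.01 CPM in untreated leaves, with a log2 difference of 2.05 (edgeR adjusted p = 0.00685, SE 0.39). The groups did not overlap in any of these, and SAB replicates differed among themselves by more than untreated ones in NCED3. Members of the clade of protein phosphatases that restrain the signal also rose, namely ABI1, ABI2, HAB1, HAB2, PP2CA and HAI2, with log2 folds of 0.66 to 3.16. Of the enzymes that break the hormone down, CYP707A1 rose (log2 fold 1.47) and CYP707A2 fell (log2 fold -0.66, edgeR adjusted p = 0.0151, SE 0.15). The receptor PYL8 was the other fall (log2 fold -0.48, edgeR adjusted p = 0.00337, SE 0.08). ABI1 and HAB1 each lost the call without any of 4 libraries (adjusted p up to 0.0934 and 0.0674), CYP707A1 without 3 (0.0919) and ABI2 without untreated replicate 1 (0.0527). Without untreated replicate 1 the list held 9 rises.

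Ethylene genes gave 6 rises (18.8%, beside 7.91% of all loci) and 0 falls among 32 tested and a median log2 fold of 0.18. The rises were ACS6, an enzyme of ethylene synthesis, and 5 ERF transcription factors. ERF11, a repressor of the family, stood at 273, 269 and 249.7 CPM in SAB leaves, against 51.2, 33.4 and 63.3 CPM in untreated leaves (log2 fold 2.42, edgeR adjusted p = 0.000292, SE 0.24). ERF109 stood at 245, 352 and 249.8 CPM in SAB leaves, against 15.4, 8.85 and 77.2 CPM in untreated leaves (log2 fold 3.06, edgeR adjusted p = 0.0203, SE 0.74), with an adjusted p of 0.0695 without untreated replicate 1. ERF8 was near the detection limit in untreated leaves, at 18.6, 6.82 and 3.86 CPM in SAB leaves, against 0.343, 0.347 and 0.839 CPM in untreated leaves (log2 fold 4.26, edgeR adjusted p = 0.00311, SE 0.69). ERF6 had a log2 fold of 1.44 (edgeR adjusted p = 0.0257, SE 0.37) and lost its call without any of 4 libraries, as ACS6 did without any of 5, and the number of rises was 3 without untreated replicate 1. EIN2, the central signal carrier, did not pass (log2 fold -0.11, edgeR adjusted p = 0.698, SE 0.15). Salicylic acid genes held 3 rises and 0 falls among 25 tested, against 7.91% of all loci rising. Without untreated replicate 1 there was 1 rise among the 25, while 920 of 17998 loci rose. A share of rises above that of all loci was therefore not shown for this list. CBP60G, a transcription factor that activates salicylic acid synthesis, stood at 48.2, 74.4 and 84.0 CPM in SAB leaves, against 29.3, 33.5 and 27.1 CPM in untreated leaves (log2 fold 1.2, edgeR adjusted p = 0.00508, SE 0.21). GRX480, a glutaredoxin at the junction of salicylic acid and jasmonate signals, stood at 42.2, 24 and 15.4 CPM in SAB leaves, against 1.87, 1.13 and 5.59 CPM in untreated leaves (log2 fold 3.26, edgeR adjusted p = 0.0198, SE 0.78), with an adjusted p of up to 0.0711 without SAB replicate 1 or untreated replicate 1 or 2. ICS1, the synthesis enzyme itself, stood at 23.3, 23.7 and 19.1 CPM in SAB leaves, against 19.3, 15.8 and 14.8 CPM in untreated leaves and did not pass (log2 fold 0.41, edgeR adjusted p = 0.146, SE 0.17).

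Genes of pattern-triggered immunity held 15 rises and 0 falls among 30 tested, with a median log2 fold of 1.00. At the receptors, PEPR2, which perceives the plant's own Pep danger peptides, stood at 23.5, 51.6 and 56.7 CPM in SAB leaves, against 2.84, 3.35 and 8.28 CPM in untreated leaves, with a log2 difference of 3.19 (edgeR adjusted p = 0.00186, SE 0.47). The second Pep receptor, PEPR1, stood at 13.9, 18.4 and 15.2 CPM in SAB leaves, against 2.22, 3.24 and 6.43 CPM in untreated leaves, with a log2 difference of 2.00 (edgeR adjusted p = 0.00386, SE 0.34). For both receptors all SAB libraries exceeded all untreated libraries, which was a condition for naming them. Precursors of the peptides, PROPEP1 and PROPEP3, rose by 1.03 and 2.97 on the log2 scale, PROPEP1 losing its call without any of 5 libraries. SOBIR1, an adaptor kinase of receptor-like proteins, stood at 304, 592 and 284 CPM in SAB leaves, against 173, 105 and 104 CPM in untreated leaves (log2 fold 1.62, edgeR adjusted p = 0.00423, SE 0.28), and the chitin receptor LYK5 rose by 1.85. Downstream, the MAP kinase MPK3 stood at 129.7, 216 and 209 CPM in SAB leaves, against 104, 87.8 and 79.1 CPM in untreated leaves (log2 fold 1.03, edgeR adjusted p = 0.00641, SE 0.19), and RBOHD, the NADPH oxidase of the oxidative burst, stood at 110.1, 280.3 and 397 CPM in SAB leaves, against 76.7, 73.1 and 83.0 CPM in untreated leaves (log2 fold 1.76, edgeR adjusted p = 0.0162, SE 0.40, up to 0.0524 without untreated replicate 1 or 2). FLS2, the flagellin receptor, did not pass and had overlapping groups (log2 fold -0.67, edgeR adjusted p = 0.323, SE 0.41). FRK1, a marker gene of the response, did not pass either, at 4.89, 1.19 and 0.957 CPM in SAB leaves, against 0.780, 0.665 and 0.489 CPM in untreated leaves (log2 fold 1.85, edgeR adjusted p = 0.344, SE 1.19). The number of rises was 11 to 15 without each library in turn.

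WRKY transcription factors held 14 rises and 0 falls among 49 tested, with a median log2 fold of 0.32. WRKY40, a regulator of immune and abscisic acid responses, stood at 173, 226 and 233 CPM in SAB leaves, against 27.4, 25.9 and 30.3 CPM in untreated leaves, with a log2 difference of 2.92 (edgeR adjusted p = 3.05e-05, SE 0.16). WRKY53 stood at 14.3, 16.9 and 13.2 CPM in SAB leaves, against 4.15, 2.4 and 2.38 CPM in untreated leaves, with a log2 difference of 2.31 (edgeR adjusted p = 0.000815, SE 0.28). WRKY33, a regulator of defence against fungi, stood at 322, 377 and 509 CPM in SAB leaves, against 139, 126 and 102 CPM in untreated leaves (log2 fold 1.72, edgeR adjusted p = 0.000938, SE 0.22). The 3 genes were separate between groups in every library. Also called were WRKY2, WRKY11, WRKY15, WRKY18, WRKY22, WRKY23, WRKY25, WRKY41, WRKY46, WRKY48 and WRKY62, with log2 folds of 0.77 to 2.03. WRKY25 and WRKY48 lost their calls without any of 4 libraries and WRKY62 without untreated replicate 2. Without each library in turn 11 to 15 rose.

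The list of cold and drought factors, stress zinc fingers and calmodulin-like proteins had the largest share of rises of the 32 lists, 16 of 28 tested (57.1%), with 1 fall and a median log2 fold of 1.15. DDF1, a DREB-type factor of cold and drought responses, stood at 33.1, 52.9 and 64.2 CPM in SAB leaves, against 5.83, 4.54 and 9.30 CPM in untreated leaves, with a log2 difference of 2.94 (edgeR adjusted p = 0.000479, SE 0.32). CBF4, of the same family, stood at 28.6, 70.8 and 75.3 CPM in SAB leaves, against 9.20, 15.8 and 17.5 CPM in untreated leaves (log2 fold 2.04, edgeR adjusted p = 0.00586, SE 0.38). The zinc-finger factor ZAT10 stood at 273, 371 and 322 CPM in SAB leaves, against 132, 87.0 and 182 CPM in untreated leaves (log2 fold 1.27, edgeR adjusted p = 0.0115, SE 0.27). SAB libraries were above untreated ones throughout. CML40, a calmodulin-like calcium sensor, stood at 14, 20.9 and 11.3 CPM in SAB leaves, against 0.967, 2.31 and 0 CPM in untreated leaves (log2 fold 3.78, edgeR adjusted p = 0.0161, SE 0.86; 0.0563 without untreated replicate 1), and CML9, CML23, CML24, CML37, CML38 and CML39 rose by 0.73 to 2.29, CML38 and CML39 losing their calls without any of 4 libraries. The fall was in ZAT5 (log2 fold -0.95, edgeR adjusted p = 0.0131, SE 0.21). With the 6 libraries of day 18 alone, 9 of this list rose, as did 8 WRKY, 7 pattern-triggered immunity, 3 jasmonate and 3 abscisic acid genes, while 6 photosystem, 3 Calvin cycle, 5 chlorophyll, 5 nitrogen and 4 sulfate genes fell.

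Of 19 tested gibberellin genes 26.3% were called and of 9 brassinosteroid genes 33.3%, beside 14.4% of all loci. The share was 16.7% for cytokinin and 11.1% for auxin genes. GA2OX6, a gibberellin 2-oxidase that inactivates gibberellin, stood at 28.6, 31.0 and 44.3 CPM in SAB leaves, against 5.83, 5.81 and 7.59 CPM in untreated leaves, with a log2 difference of 2.44 (edgeR adjusted p = 0.000163, SE 0.22). GA2OX2, of the same function, stood at 20.6, 9.99 and 18.0 CPM in SAB leaves, against 5.99, 6.74 and 5.35 CPM in untreated leaves (log2 fold 1.43, edgeR adjusted p = 0.00666, SE 0.27). GASA6, a gibberellin-stimulated peptide, stood at 34.6, 53.2 and 57.4 CPM in SAB leaves, against 181, 132 and 121 CPM in untreated leaves, with a log2 difference of -1.58 (edgeR adjusted p = 0.00240, SE 0.24). The groups were separate in each. The synthesis enzymes GA20OX3 and GA3OX1 were low in both groups and lower in SAB leaves: GA20OX3 stood at 0.0593, 0.0889 and 0.0598 CPM in SAB leaves, against 3.4, 6.01 and 4.3 CPM in untreated leaves (edgeR adjusted p = 8.55e-05), and GA3OX1 stood at 0.119, 0.326 and 0.0897 CPM in SAB leaves, against 2.62, 2.49 and 3.25 CPM in untreated leaves (log2 fold -3.94, edgeR adjusted p = 0.000525, SE 0.44). The SAB values of GA20OX3 are no more than 3 units per library, so no fold is given for it. GA20OX1 did not pass, and of 19 tested gibberellin genes 2 rose and 3 fell, with 5 falls without SAB replicate 3. In brassinosteroid synthesis BR6OX2, an enzyme of the last steps, stood at 12, 9.58 and 9.0 CPM in SAB leaves, against 33.1, 25.1 and 23.7 CPM in untreated leaves (log2 fold -1.42, edgeR adjusted p = 0.000426, SE 0.15). DWF4, a rate-limiting hydroxylase, fell by 0.37 and ROT3 rose by 0.85 on the log2 scale, with adjusted p of up to 0.0509 and 0.0657 without 1 library. Of 18 tested cytokinin genes 3 rose, all of them cytokinin oxidases that degrade the hormone: CKX3 (1.45), CKX6 (1.36) and CKX7 (0.74). This count was 0 to 2 without each library in turn. Of 36 auxin genes 3 rose and 1 fell (8.33% and 2.78%, beside 7.91% and 6.52% of all loci). IAA3, a repressor of auxin responses, stood at 149.7, 214 and 209 CPM in SAB leaves, against 72.7, 84.7 and 98.9 CPM in untreated leaves (log2 fold 1.16, edgeR adjusted p = 0.00119, SE 0.15), and its relative IAA19 and the conjugating enzyme GH3.5 rose by 0.82 and 1.35. YUC6, of auxin synthesis, was the fall (log2 fold -0.69, edgeR adjusted p = 0.0491, SE 0.21) and lost its call without any 1 of the 6 libraries.

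Genes of cell enlargement went both ways, while 0 of those of cell division were called. The expansins EXPA1, EXPA8, EXPA10 and EXPA11, which loosen cell walls, fell, and EXPA16 and XTH30 rose, among 35 tested wall genes. Thus 5.71% of the list rose and 11.4% fell, beside 7.91% and 6.52% of all loci. Leaving out each library in turn gave 0 to 3 rises and 2 to 6 falls. EXPA1 stood at 18.2, 22.9 and 16.4 CPM in SAB leaves, against 93.0, 81.7 and 38.3 CPM in untreated leaves (log2 fold -1.89, edgeR adjusted p = 0.00494, SE 0.34). EXPA8 stood at 43.0, 73.0 and 74.6 CPM in SAB leaves, against 166, 143 and 105 CPM in untreated leaves (log2 fold -1.12, edgeR adjusted p = 0.00771, SE 0.22). Both were separate between groups, while EXPA11 and EXPA16 lost their calls without any of 4 libraries (adjusted p up to 0.0832 and 0.116), XTH30 without any of 5 (0.0943) and EXPA10 without SAB replicate 2 (0.0511). Of 34 cell cycle and DNA replication genes, 57 cytosolic ribosomal protein genes and 10 plasma membrane aquaporin genes 0 were called by edgeR; an unadjusted p below 0.05 was found at 2, 10 and 2 of them in that order. DESeq2 called 0 cell cycle genes, 5 ribosomal protein genes lower and 2 aquaporin genes lower, and limma-voom called 1 aquaporin gene lower and 0 of the others. Of the ribosomal protein genes 50 lay below 0, and edgeR called 9 of them lower without SAB replicate 3 (median -0.56) and 4 lower without untreated replicate 3 (median -0.49). Without SAB replicate 3 it also called 1 aquaporin gene lower, and with library totals 1 higher. The median log2 folds were 0.03, -0.33 and -0.02 in that order, and with library totals 0.19, -0.19 and 0.16. CYCB1;1, a mitotic cyclin, stood at 9.87, 7.65 and 7.77 CPM in SAB leaves, against 9.36, 9.28 and 5.42 CPM in untreated leaves (log2 fold 0.07, edgeR adjusted p = 0.860, SE 0.20). RPS6A, of the small ribosomal subunit, stood at 239, 261 and 359.6 CPM in SAB leaves, against 361, 467 and 286 CPM in untreated leaves (log2 fold -0.37, edgeR adjusted p = 0.249, SE 0.20).

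Secondary metabolism held more rises than falls. Of 31 phenylpropanoid and flavonoid genes 9 rose and 2 fell (29.0% and 6.45%, beside 7.91% and 6.52% of all loci), with a median log2 fold of 0.33. CHS, chalcone synthase and the entry enzyme of flavonoids, stood at 371, 288 and 289 CPM in SAB leaves, against 157, 156 and 147 CPM in untreated leaves, with a log2 difference of 1.04 (edgeR adjusted p = 0.000709, SE 0.12). MYB12, an activator of flavonol synthesis, stood at 16.8, 10.6 and 6.43 CPM in SAB leaves, against 2.59, 3.96 and 0.944 CPM in untreated leaves (log2 fold 2.17, edgeR adjusted p = 0.0123, SE 0.46). Groups were separate in both, and the flavonoid enzymes CHI, F3H, FLS1 and LDOX rose by 0.80 to 1.57, although LDOX, the largest of the 4, lost its call without any of 5 libraries (adjusted p up to 0.112). Without SAB replicate 1 the list held 5 rises. The falls were HCT, of lignin precursor synthesis (log2 fold -0.46, edgeR adjusted p = 0.00843, SE 0.09), and the repressor MYB4 (log2 fold -0.82, edgeR adjusted p = 0.0259, SE 0.21, up to 0.0823 without 1 library). Of 39 genes of glucosinolates, the defence compounds typical of Brassica plants, 6 rose and 0 fell (15.4% rising, beside 7.91% of all loci), with a median of 0.47. BCAT4, which starts the chain elongation of methionine, stood at 207, 137 and 178 CPM in SAB leaves, against 56.6, 32.0 and 89.7 CPM in untreated leaves (log2 fold 1.55, edgeR adjusted p = 0.0135, SE 0.34). The transporters GTR1 and GTR2, the elongation enzyme MAM1, the side-chain enzyme AOP3 and the myrosinase PEN2 also rose, by 0.60 to 1.66, and each of AOP3, MAM1, GTR2 and PEN2 lost its call without 4 or 5 of the 6 libraries. The list held 17 rises without untreated replicate 3, and 2 or 3 without untreated replicate 1 or 2 or SAB replicate 1 or 3. MYB28, the main activator of aliphatic glucosinolates, did not pass (log2 fold -0.16, edgeR adjusted p = 0.750, SE 0.27). In the detoxification list 7 of 35 genes rose, among them the glutathione transferase GSTU13 at 175, 76.9 and 141 CPM in SAB leaves, against 35.2, 26.9 and 43.9 CPM in untreated leaves (log2 fold 1.89, edgeR adjusted p = 0.00220, SE 0.29), and 3 fell, including the thylakoid ascorbate peroxidase TAPX (log2 fold -0.74, edgeR adjusted p = 0.0112, SE 0.16). Thus 20.0% of the detoxification list rose and 8.57% fell, beside 7.91% and 6.52% of all loci. Without untreated replicate 1, 4 of the list rose. CAT2, the main leaf catalase, did not pass (log2 fold -0.03, edgeR adjusted p = 0.909, SE 0.13).

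Starch and sugar genes held 6 rises and 4 falls among 40 tested (15% and 10.0%, beside 7.91% and 6.52% of all loci), and the balance was not stable. It was 3 rises and 7 falls without untreated replicate 2, 3 and 3 without untreated replicate 1, 4 and 1 without SAB replicate 1, 7 and 2 without untreated replicate 3, and 9 and 2 with library totals. BAM1, a beta-amylase that degrades starch under stress, stood at 218, 199 and 147 CPM in SAB leaves, against 71.5, 70.0 and 84.8 CPM in untreated leaves (log2 fold 1.32, edgeR adjusted p = 0.000936, SE 0.17). GPT2, a glucose-6-phosphate transporter of the chloroplast envelope, stood at 70.7, 32.5 and 43.4 CPM in SAB leaves, against 14.9, 17.6 and 10.9 CPM in untreated leaves (log2 fold 1.75, edgeR adjusted p = 0.00381, SE 0.30). MEX1, which exports maltose from the chloroplast, stood at 36.3, 33.9 and 28.3 CPM in SAB leaves, against 44.2, 50.8 and 70.2 CPM in untreated leaves (log2 fold -0.75, edgeR adjusted p = 0.0123, SE 0.16). The first pair was higher and the last lower in every SAB library. Of 26 clock genes 1 rose (RVE6, 0.61) and 2 fell (PRR3, -0.86, and COL2, -1.19), so 11.5% were called, beside 14.4% of all loci. COL2 lost its call without any 1 library and PRR3 without untreated replicate 2 or 3. The core genes CCA1 (log2 fold -0.05, edgeR adjusted p = 0.889, SE 0.19) and LHY (log2 fold 0.26, edgeR adjusted p = 0.718, SE 0.39) had overlapping groups. Of 24 heat shock genes 0 rose and 2 weakly expressed ones fell (8.33% falling, beside 6.52% of all loci). In the cuticular wax list the factors MYB94 and MYB96 rose (11.8% of 17 tested, beside 7.91% of all loci). The log2 fold was 0.62 (edgeR adjusted p = 0.00240, SE 0.10) for MYB96, while MYB94 lost its call without any of 4 libraries. Among 10 flowering regulators FT, the mobile flowering signal, rose at 69.2, 60.0 and 39.0 CPM in SAB leaves, against 27.2, 39.1 and 28.5 CPM in untreated leaves (log2 fold 0.83, edgeR adjusted p = 0.0252, SE 0.21), with overlapping groups and an adjusted p of up to 0.0923 without 1 library. The rise of FT is 10.0% of the flowering list, beside 7.91% of all loci. FLC and SOC1 did not pass (log2 fold 0.08, edgeR adjusted p = 0.607, SE 0.08 for FLC and log2 fold 0.33, edgeR adjusted p = 0.400, SE 0.24 for SOC1). Of 5 tested defensin and chitinase genes edgeR called 0 (1 at an unadjusted p below 0.05), and DESeq2 and limma-voom each called 1 higher.

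The largest changes over all loci were sought among called loci whose groups did not overlap and whose average reached 5 CPM in SAB or untreated leaves. Loci at 0 in every library of 1 group were left out. Of all called loci, 6 rises were at 0 in all untreated libraries and 8 falls at 0 in all SAB libraries. Within these limits the 5 largest rises were in AT1G11840, AT4G36950, NAC019, ERF8 and AT1G19210. AT1G11840, a glyoxalase I homologue that detoxifies methylglyoxal, stood at 123, 84.7 and 146 CPM in SAB leaves, against 1.37, 1.07 and 0.629 CPM in untreated leaves, with a log2 difference of 6.83 (edgeR adjusted p = 0.00512, SE 1.22). In day 18 roots its log2 fold was 8.47 (edgeR adjusted p = 0.000335), and in day 8 leaves -0.86 (edgeR adjusted p = 0.897). The root rise is not independent of the leaf rise, because leaf and root libraries are not independent samples. At day 8 the locus varied widely within both groups, averaging 8.44 CPM (SD 9.44) after SAB and 15.2 CPM (SD 14.8) without treatment. AT1G19210, an ERF-family transcription factor, stood at 26.4, 14.1 and 21.2 CPM in SAB leaves, against 1.15, 1.24 and 0.839 CPM in untreated leaves (log2 fold 4.24, edgeR adjusted p = 0.00130, SE 0.57). AT4G36950, a MAP kinase kinase kinase, stood at 33.4, 6.49 and 6.13 CPM in SAB leaves, against 0.0312, 0.0578 and 1.75 CPM in untreated leaves (log2 fold 4.68, edgeR adjusted p = 0.0235, SE 1.17) and lost its call without any of 3 libraries. By the same limits, which leave out GA20OX3 and other weakly expressed loci, the 5 largest falls were in AT2G46630, AT3G59960, AT1G49500, AT2G03980 and AT3G63300. AT2G46630 stood at 0.0296, 0.0296 and 0.0299 CPM in SAB leaves, against 8.21, 0.116 and 6.78 CPM in untreated leaves (edgeR adjusted p = 0.0183), about 1 unit per SAB library, so no fold is given. Untreated replicate 2 was also low, and the call was lost without any of 3 libraries. AT3G59960 stood at 0.148, 3.23 and 1.17 CPM in SAB leaves, against 10.3, 149 and 14.6 CPM in untreated leaves (log2 fold -5.25, edgeR adjusted p = 0.0347, SE 1.45), with untreated replicate 2 far above the other untreated libraries, and lost its call without any of 4 libraries. AT1G49500 stood at 0.0889, 0.267 and 0.508 CPM in SAB leaves, against 6.74, 9.14 and 10.1 CPM in untreated leaves (log2 fold -4.89, edgeR adjusted p = 0.000567, SE 0.56), AT2G03980, a GDSL-type lipase, at 0.533, 3.2 and 2.00 CPM in SAB leaves, against 18.2, 32.8 and 18.5 CPM in untreated leaves (log2 fold -3.60, edgeR adjusted p = 0.00118, SE 0.47), and AT3G63300, named FORKED1 for its role in leaf vein patterning, at 1.39, 2.55 and 2.24 CPM in SAB leaves, against 27.8, 13.3 and 11.9 CPM in untreated leaves (log2 fold -3.10, edgeR adjusted p = 0.00458, SE 0.54). These last 3 were lower in every SAB library.

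Most of these differences were not called in seedling leaves. In leaves at day 8, 69 loci rose and 6 fell with SAB (0.390% and 0.0339%, together 0.424% of the loci tested), and 66 of the 1401 loci higher at day 18 and 1 of the 1154 lower ones were also called in the same direction there. The ages also differed in core clock genes. CCA1 averaged 2.08 CPM in untreated leaves at day 8 and 102 CPM at day 18, and LHY averaged 2.00 and 158 CPM. Leaf age and a possible difference in time of sampling cannot be told apart here, and the part of sampling time was not tested. A test of the difference itself, the SAB effect at day 18 minus that at day 8 in 1 fit of the 12 leaf libraries, called 175 loci higher and 260 lower (0.988% and 1.47%, together 2.46%). This count varied widely: it was 184 without untreated replicate 1, 232 without SAB replicate 1, 259 without SAB replicate 2 and 1399 with DESeq2, and with library totals 571 loci were higher and 156 lower. With replicate number as a block in the fit it was 8. SAB and untreated leaves of the same number had correlations of 0.08, 0.04 and -0.01 at day 18. All 6 called falls of the nitrogen list were among those lower than at day 8, with UPM1 at a difference of -3.02 and NIR1 at -2.38 on the log2 scale. Of the sulfate list 6 of 15 were lower, with LSU2 at -2.80 and APR3 at -1.67. They comprise 5 of the 6 called falls and APS3, an ATP sulfurylase that did not pass at day 18 but rose at day 8, at 2.85, 0.823 and 1.48 CPM in SAB leaves, against 0 CPM in all 3 untreated libraries (edgeR adjusted p = 0.0330). Of photosystem genes 8 of 46 were lower, and of chlorophyll synthesis genes 5 of 22, with PORA at -1.32. Without each library in turn the numbers lower were 3 to 6 for nitrogen, 4 to 6 for sulfate, 1 to 12 for photosystem and 3 to 10 for chlorophyll genes, and photosystem genes had 1 without SAB replicate 1 or untreated replicate 1. With the block on replicate number they were 0 for nitrogen, 1 for sulfate, 0 for photosystem and 0 for chlorophyll genes. In day 8 leaves the genes named by this difference, other than APS3, had log2 folds of 1.00 for UPM1, 0.32 for NIR1, 0.57 for LSU2, 0.21 for APR3 and 0.11 for PORA, and 0 of the 5 were called (edgeR adjusted p of 0.221 to 0.898).

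Some stress-responsive transcription factors were already called at day 8. Of the cold, drought and calcium list 6 genes already rose there, among them DDF1 with a log2 fold of 2.48 (edgeR adjusted p = 0.0141) and CBF4 with 2.85 (edgeR adjusted p = 0.0188). WRKY40 rose at day 8 by 1.91 (edgeR adjusted p = 0.00121), and its effect at day 18 was larger by 1.01 (edgeR adjusted p = 0.0404). WRKY53 did not pass at day 8 and its difference was 2.18 (edgeR adjusted p = 0.0276). GA2OX6 rose at day 8 by 1.84 (edgeR adjusted p = 0.0140), with a difference between the ages of 0.59 that did not pass (edgeR adjusted p = 0.325). Of the jasmonate list 0 were called at day 8 and 1, JAZ8, differed between the ages, while a difference at the other 26 was not shown.

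**Figure D4:**
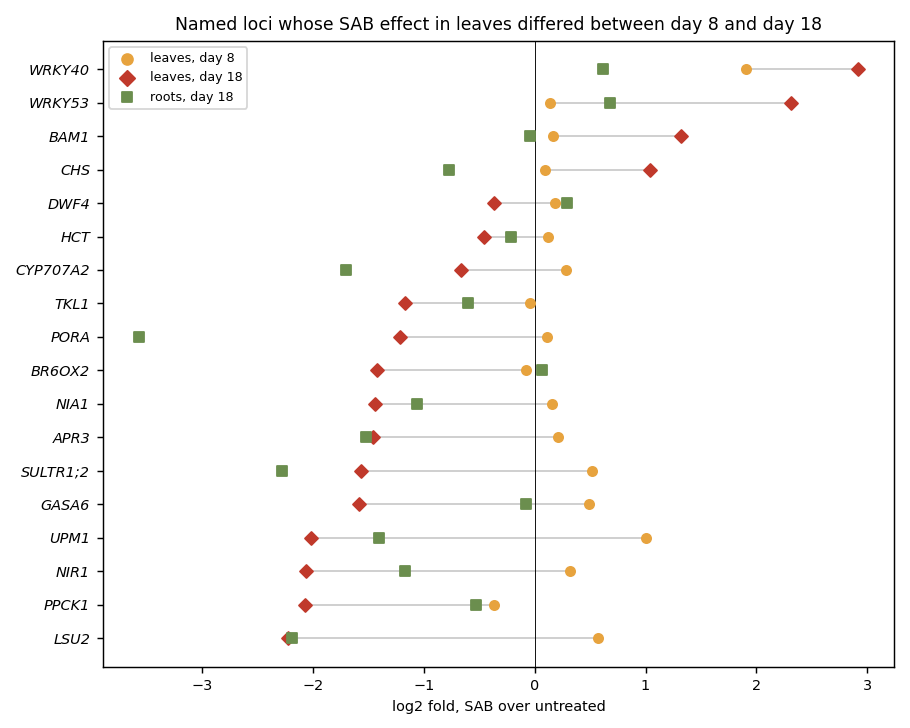
Log2 fold of SAB over untreated plants (horizontal axis) in day 8 leaves (orange circles), day 18 leaves (red diamonds) and day 18 roots (green squares) for the named genes of the lists whose leaf effect differed between the ages (vertical axis). WRKY40, WRKY53, BAM1 and CHS lie further to the right at day 18, and the other 14 genes, among them NIA1, NIR1, UPM1, APR3 and LSU2, lie further to the left.

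Day 18 roots gave a further comparison. In them 38 loci rose and 107 fell with SAB (0.200% and 0.564%, together 0.764% of 18973 tested). There 18 of the leaf rises and 40 of the leaf falls were called in the same direction, and 2 of the rises and 1 of the falls in the opposite one. The SAB effect differed between leaf and root at 201 loci (138 higher and 63 lower in leaf, 0.701% and 0.320%, together 1.02% of 19681). WRKY40 had an effect larger in leaf by 2.29, NCED3 by 2.80 and CHS by 1.81 on the log2 scale. APR3, SULTR1;2 and UPM1 fell in root too, with log2 folds of -1.52, -2.28 and -1.40 (edgeR adjusted p = 0.0185 for APR3, 0.0140 for SULTR1;2 and 0.0160 for UPM1). Leaf and root libraries of 1 number and treatment deviated together from their group means (correlations of 0.34 to 0.39), so the tissues are not independent samples.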

How the data were processed

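Per the labels' protocols, libraries of polyadenylated RNA were read from both ends, 100 bases each. The submitters' processing notes list kallisto, Bowtie2 and Trim Galore; what each did, and with which version, index and annotation, is not given in the sources used here. Estimated counts, mostly not whole, are what the authors deposited. Over 37652 rows that are at 0 in some library, the smallest value above 0 had a median of 5.29, so 1 unit can stand for less than 1 read and low levels are less precise than their size implies; depth limits counting error only. Values were summed per locus, rounded, and tested with edgeR 4.0.16 (R 4.3.3): quasi-likelihood fit with robust dispersion, TMM scaling, the default filter (minimum count 10, total 15) and a false discovery rate of 0.05. The 12 leaf libraries entered 1 fit for the effects at each age and their difference, and all 24 libraries the fit for leaf minus root. Before use, the fit was run on counts simulated from its own means and dispersions with known changes. Such counts are whole numbers of the kind the fit assumes, so this does not show how it handles the deposited estimates. No identifier (0) matched the reference gene table, and no sequence is printed.

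The gene lists (32, with 5 marker lists) and their members were chosen with earlier results of these data known. Per list, the 2 largest rises and falls were named among called loci whose groups do not overlap and whose mean reached 5 CPM in 1 group, with fixed key members whatever they did and the 5 largest rises and falls over all loci; other members are named after their values were seen. Alternatives were DESeq2 1.42.0, limma-voom (limma 3.58.1), RLE factors, library totals, no filter, single rows, the 6 libraries alone, a 2-fold threshold, a replicate block and leaving out each library.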

Additional observations from a re-analysis of the deposited data

Results flagged for a closer look

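The SAB effect of the following named loci differed between leaf ages or between tissues by a test of the difference itself (edgeR quasi-likelihood test, adjusted p below 0.05), and each value is a difference of log2 folds. For day 18 minus day 8 in leaves, the values above 0 were 1.01 for WRKY40, 2.18 for WRKY53, 0.95 for CHS, 1.15 for BAM1 and 7.69 for AT1G11840. In photosynthesis they were -1.14 for TKL1 and -1.32 for PORA. In hormone metabolism they were -0.94 for CYP707A2, -2.07 for GASA6, -1.34 for BR6OX2 and -0.54 for DWF4. In nutrient assimilation they were -2.38 for NIR1, -3.02 for UPM1, -1.59 for NIA1, -2.80 for LSU2, -2.09 for SULTR1;2, -1.67 for APR3 and -1.70 for PPCK1. The others were -0.58 for HCT, -9.82 for AT2G46630, -5.66 for AT1G49500, -3.84 for AT2G03980 and -3.40 for AT3G63300. AT1G11840 varied widely among the day 8 libraries of both groups. Core clock genes also differed in level between the ages, and the part of sampling time in these values was not tested.

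For leaf minus root at day 18, the values above 0 were 3.90 for NAC019, 1.37 for ATAF1, 1.44 for CBP60G, 2.29 for WRKY40, 3.43 for ERF8, 2.80 for NCED3, 1.13 for IAA3, 1.81 for CHS, 3.11 for GPT2, 1.36 for BAM1 and 2.76 for AT1G19210. The values below 0 were -1.49 for BR6OX2, -1.54 for PPCK1, -6.7 for AT2G46630, -3.59 for AT1G49500 and -3.11 for AT2G03980. AT2G46630 is at about 1 unit per library in SAB leaves, and its differences depend on the fit's prior count.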

How the results depend on the processing

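The SAB effect in day 18 leaves (2555 loci) fell to 1675 loci with the replicate block, 735 with the 6 libraries alone and 929 at 2-fold, and spanned 1771 to 2400 without each library. SAB and untreated leaves share only a number: their own-number correlations were 0.08, 0.04 and -0.01, and SAB replicate 3 correlated best with untreated replicate 2. For day 18 minus day 8 (435 loci) the count was 8 with the replicate block, 1399 with DESeq2, 727 with library totals (571 higher, 156 lower, with a median shift of 0.27), 207 on single rows, 252 at 2-fold and 184 to 603 without each library (184 without untreated replicate 1, 232 without SAB replicate 1, 259 without SAB replicate 2). For leaf minus root (201 loci) it was 133 with the replicate block, 707 with DESeq2, 491 with library totals (440 higher, 51 lower, shift 0.23), 93 on single rows and 153 to 329 without each library (329 without untreated replicate 3). A block on plant number across tissues, chosen after seeing the data, gave 237. With RLE factors leaf minus root gave 113 higher and 91 lower. Beyond the fewer libraries where some were left out, the cause was not tested. The photosystem share stayed 4.31 to 5.56 percentage points lower without each library and 5.92 without the 10 most abundant other loci, where no threshold could be reached. Of 90 named called loci, 41 kept their call under every setting run, 62 without each library, and 0 reversed.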

Other observations

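The largest nitrogen falls led to 2 further lists, chosen after the values were seen and therefore given without a test of the list. Of 18 tested genes that nitrate is known to induce in Arabidopsis thaliana, 8 fell and 0 rose in SAB leaves, with a median log2 fold of -1.02. The falls are 44.4% of this list, beside 6.52% of all loci. G6PD3, a plastid glucose-6-phosphate dehydrogenase, stood at 35.6, 52.5 and 56.2 CPM in SAB leaves, against 169, 145 and 135 CPM in untreated leaves, with a log2 difference of -1.64 (edgeR adjusted p = 0.000747, SE 0.20). LBD37, a transcription factor that represses nitrogen-responsive genes, stood at 4.89, 16.5 and 20.8 CPM in SAB leaves, against 94.8, 69.9 and 48.1 CPM in untreated leaves, with a log2 difference of -2.34 (edgeR adjusted p = 0.00562, SE 0.43). BT2 stood at 0.0889, 0.0296 and 0.120 CPM in SAB leaves, against 1.65, 1.59 and 0.664 CPM in untreated leaves; in day 8 leaves it averaged 194 CPM with SAB and 244 CPM untreated. G6PD2, HHO3, LBD38, LBD39 and RFNR2 also fell, and CIPK8, CIPK23, TGA1 and TGA4 were among the 10 that did not pass.

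Of 12 tested genes of phosphoenolpyruvate carboxylase and of malate and nitrate transport into the vacuole, 7 fell and 0 rose. The falls are 58.3% of this list, also chosen after the values were seen, beside 6.52% of all loci. PPC2, a phosphoenolpyruvate carboxylase that feeds malate synthesis, stood at 309, 512 and 490.5 CPM in SAB leaves, against 2524, 1999.8 and 2657 CPM in untreated leaves, with a log2 difference of -2.45 (edgeR adjusted p = 0.000110, SE 0.20). TDT, the vacuolar dicarboxylate transporter, stood at 10.7, 29.4 and 25.6 CPM in SAB leaves, against 109.9, 102 and 140.1 CPM in untreated leaves, with a log2 difference of -2.42 (edgeR adjusted p = 0.00131, SE 0.33). CLCA, which moves nitrate into the vacuole, stood at 8.68, 7.89 and 10.9 CPM in SAB leaves, against 22.9, 25.7 and 31.2 CPM in untreated leaves, with a log2 difference of -1.54 (edgeR adjusted p = 0.000321, SE 0.15). PPC3, CLCB and ALMT9 fell as well, as did the kinase PPCK1, which was already counted in the phosphate list. PPC1, PPC4, ALMT4, ALMT6 and CLCC did not pass. The genes with values here were picked after those values were seen, and in each every SAB library was below every untreated one. The groups overlapped in other members of both lists, among them TGA1, TGA4, CIPK23, ALMT4 and CLCC.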
